A study of Mus musculus with 8 samples.

Results

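The genes described here are Trp53, which encodes the tumour suppressor p53, its regulators Mdm2 and Mdm4, and 7 genes known as p53 targets: Trp53inp1, Zmat3, Eda2r, Ccng1, Sesn1, Plk2 and Phlda3. They were taken by symbol from a deposited count table, and these 10 genes are 10 of its 22036 annotated genes. The study sequenced messenger RNA of CT26, an established mouse colon carcinoma cell line. There were 4 libraries of unedited cells (WT) and 4 of cells with a Tead1/4 knockout, all from cultures in serum-containing RPMI medium. TEAD proteins bring the Hippo pathway's coactivators YAP and TAZ to DNA. The labels do not say whether the knockout cells are 1 clone or several, or whether the libraries of a genotype come from separate cultures, so the p-values speak of the spread among these libraries alone, and that spread may be technical.

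p53 is a transcription factor that binds DNA as a tetramer and switches on genes of cell cycle arrest, apoptosis, DNA repair and metabolism when cells are stressed. Its activity is set mainly at the protein: the ubiquitin ligase Mdm2 marks p53 for degradation, Mdm4 masks its activation domain, and Mdm2 is itself a p53 target, which closes a negative feedback loop. The amount and activity of the p53 protein were not measured by these libraries. CT26 cells are known to have lost Cdkn2a, whose product p19Arf restrains Mdm2, and Cdkn2a had a count of 0 in all 8 libraries, where 3 counts correspond to 0.0873 to 0.110 CPM.

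Total counts per library lay between 29679405 and 32774905. Levels are CPM, the usual depth-scaled count, here with TMM factors, given as mean ± SD with n = 4 per genotype, and a gene was called changed at an adjusted p under 0.05 in edgeR's quasi-likelihood test, two-sided, over 13265 rows. The targeted transcripts were lower in the knockout libraries: Tead1 stood at 51.15 to 77.8 CPM against 142 to 319 CPM in WT (edgeR adjusted p = 0.00217), and Tead4 at 23.3 to 37.0 against 36.7 to 63.2 CPM (adjusted p = 0.0261), a call that was lost without any of 4 libraries. Of the colon epithelium markers, Epcam had no count in any library, Cdh1, Vil1 and Cdx2 were at no more than 0.213 CPM and Krt8 at no more than 1.005 CPM, while Krt18 and Krt20 were at 20.4 CPM or more. Summed over 10 leukocyte markers the level was 0 to 0.773 CPM in WT and 1.59 to 4.61 CPM in the knockout libraries, with Cd3e and Adgre1 at 0. Over 5 endothelial markers it was 0 to 0.438 and 3.20 to 6.45 CPM, with Kdr at 0. Most of the knockout level was Lyz2 for the leukocyte list and Tie1 for the endothelial list. These 2 were the only genes of their lists that were tested, and both were called higher. Both passed the filter on low counts only through the knockout libraries, where they are high. Over 7 fibroblast markers the summed level was 1410 to 2130 CPM in WT and 1740 to 2340 CPM in the knockout libraries. Of the 6 that were tested 4 were called higher, beside 20.9% of all rows tested. Dcn, among these 4, passed the filter on low counts only through the knockout libraries, where it is high. Col1a1 and Col1a2 did not pass the test. The part of all these markers in the results below was not tested. Each pair of libraries was compared over the rows with enough counts in that pair. WT replicates 1 and 4 were closest to each other and so were 2 and 3 (chi-square per degree of freedom 34.66 and 35.01, against 201.5 to 241.5 for the other WT pairs). A mean over 15 genes of G2/M phase was at 7.78 to 8.08 log2 CPM in WT, at 7.37 in knockout replicate 1 and at 4.94 to 6.08 in knockout replicates 2 to 4.

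The transcript of p53 itself fell while most of the target genes were higher in the knockout libraries. Of the 10 genes, 6 rose (Mdm2, Trp53inp1, Zmat3, Eda2r, Plk2 and Phlda3), 1 fell (Trp53) and 3 did not pass the test (Mdm4, Ccng1 and Sesn1). Over all rows tested, 41.6% were called, 20.9% as higher and 20.6% as lower. The groups did not overlap for the 7 called genes, and over all rows tested they did not overlap for 40.7%. The 10 genes, and the gene lists further below, were chosen with earlier results of these data known. Their counts and medians are therefore a description and no test of a set. The median log2 fold change (knockout minus WT) of the 10 genes was 0.85, against 0.02 for all rows. Scaling by upper quartiles or by library size alone raised both medians, to 1.02 for the 10 genes and 0.20 for all rows. All 10 genes passed the filter on low counts. In such bulk libraries, a change in RNA per cell and a change in the share of cells that express a gene cannot be told apart.

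**Figure D1:**
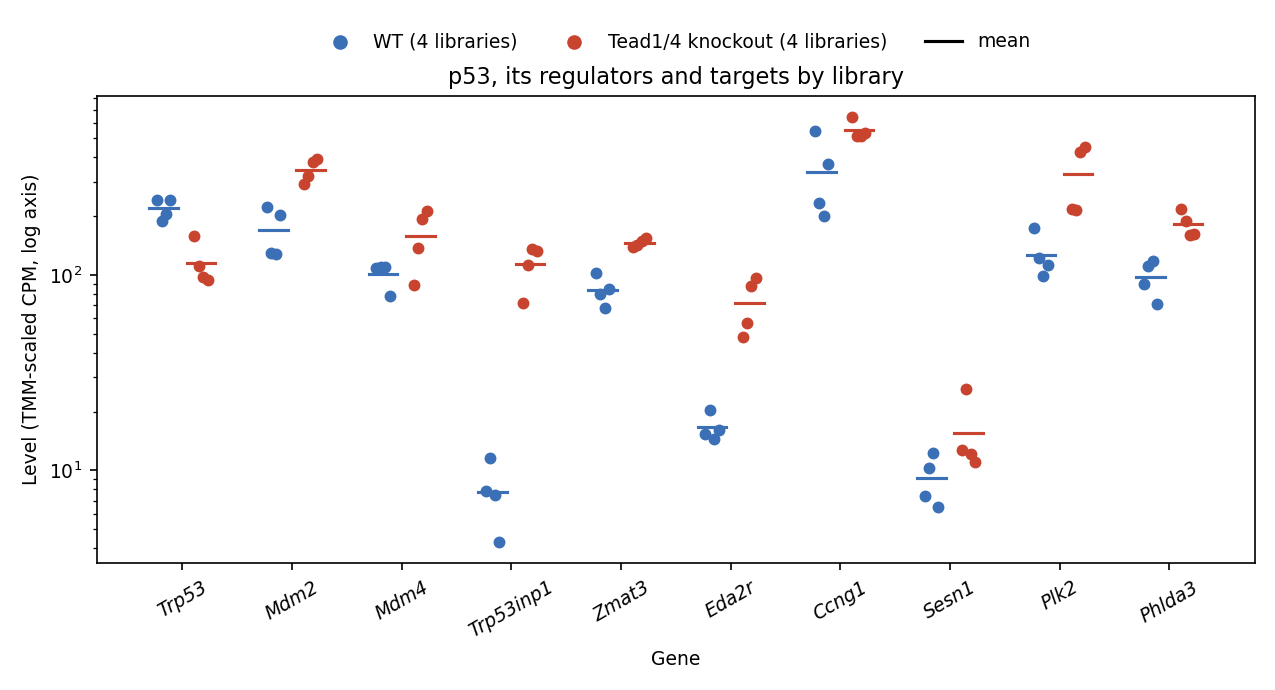
Level of each of the 10 genes in every library, as TMM-scaled CPM on a log axis, with WT in blue, Tead1/4 knockout in red and a line at each mean of 4 libraries. Trp53 is lower in all 4 knockout libraries, and Trp53inp1 shows the widest separation, 72.1 to 136 CPM against 4.295 to 11.5 CPM.

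The start regions of these genes were searched for the p53 consensus decamer, the 10-base repeat of which a p53 response element holds a pair, and for GGAATG or CATTCC, the core of the TEAD motif. RefSeq promoter windows (GRCm38.p6, 250 bases before to 50 after a start) were found for 8 of the 10 genes, in 10 windows. Trp53inp1 and Zmat3 had no entry. A decamer was in 4 of these windows, those of Trp53, Mdm2, Ccng1 and 1 of the 2 of Sesn1, against 8.36% of all 32851 windows. A pair of decamers up to 13 bases apart was in none of the 10 windows and in 0.0731% of all windows. Among these was 1 of the 2 windows of Cdkn1a, the p53 target that encodes p21. Decamers with a mismatch were not counted, so a pair that holds a mismatch was missed. In the stretches below, the 10 bases directly before the marked Ccng1 decamer miss the consensus at 1 base. So do the 10 bases directly after the second marked decamer of Cdkn1a. GGAATG or CATTCC was in 2 windows, of Eda2r and Phlda3, and in 14.7% of all windows. A match describes letters only and does not show binding. The stretches below show in capitals the matches that end before the start (decamers, or the TEAD core for Eda2r). The Phlda3 match ends at or after the start and is not printed. Each stretch runs 5′ to 3′ on the gene's strand, and the Cdkn1a pair is given for comparison.
Trp53, chr11:69580259-69580318, plus strand: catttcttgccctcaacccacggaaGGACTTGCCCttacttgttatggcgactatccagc
Mdm2, chr10:117710910-117710969, minus strand: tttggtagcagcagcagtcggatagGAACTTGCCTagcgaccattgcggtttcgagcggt
Ccng1, chr11:40755437-40755496, minus strand: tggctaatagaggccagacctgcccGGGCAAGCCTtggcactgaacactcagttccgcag
Sesn1, chr10:41887241-41887300, plus strand: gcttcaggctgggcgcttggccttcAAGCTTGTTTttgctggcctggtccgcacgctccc
Eda2r, chrX:97377211-97377266, minus strand: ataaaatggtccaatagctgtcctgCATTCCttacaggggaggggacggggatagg
Cdkn1a, chr17:29090881-29090962, plus strand: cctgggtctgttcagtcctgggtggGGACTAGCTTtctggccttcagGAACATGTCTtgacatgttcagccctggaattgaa

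Trp53 (ENSMUSG00000059552) lies on chromosome 11 of GRCm38, 69580359 to 69591873, plus strand. Its level was 242, 189, 206 and 242.5 CPM in WT replicates 1 to 4 and 157, 111, 98.0 and 94.2 CPM in knockout replicates 1 to 4. Its start region held a p53 decamer. Every knockout library lay below every WT library, and knockout replicate 1 was the nearest to WT. Mean Trp53 was 220.1 ± 26.7 CPM in WT and 115 ± 29.0 CPM in the knockout libraries, 1.91-fold lower (log2 fold change of -0.94 with SE 0.19, edgeR adjusted p = 0.00484). The neighbouring gene Wrap53, transcribed from the opposite strand, starts 104 bases from the Trp53 start and shares no annotated exon base with it. Wrap53 was at 11.9 to 14.6 CPM in WT and 5.99 to 14.1 CPM in the knockout libraries and did not pass the test (adjusted p = 0.136), but was called without knockout replicate 1 (log2 fold change -0.89, adjusted p = 0.00906).

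Mdm2 (ENSMUSG00000020184, chromosome 10, 117688875 to 117710758, minus strand) encodes the ligase that removes p53 and is the classic feedback target. Its searched start region held 1 decamer and no pair, and whether p53 binds there was not tested. Mdm2 was at 222, 130.1, 127.5 and 202 CPM in WT and at 291, 320.1, 377 and 390.0 CPM in the knockout libraries. All knockout values lay above all WT values, and within WT replicates 1 and 4 were 1.65 times as high as replicates 2 and 3. Mean Mdm2 rose 2.02-fold, from 170.4 ± 48.7 to 345 ± 46.9 CPM (log2 fold change of 1.02 with SE 0.22, edgeR adjusted p = 0.00587). Per kilobase of exon, the Trp53 level was above the Mdm2 level in each WT library (46.8 to 60.0 against 25.1 to 43.7 CPM per kilobase). In each knockout library the order of these levels was the opposite, with Mdm2 at 57.3 to 76.7 and Trp53 at 23.3 to 38.9 CPM per kilobase.

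Mdm4 (ENSMUSG00000054387, chromosome 1, 132959484 to 133030561, minus strand), the relative of Mdm2 that binds and blocks p53, did not pass the test. WT replicates 1 to 4 were at 108, 110.4, 109 and 78.2 CPM, and knockout replicates 1 to 4 at 88.9, 137, 193 and 211.5 CPM. Knockout replicate 1 lay within the WT values and the other 3 lay above them. The means were 101.5 ± 15.5 and 158 ± 55.7 CPM, with a log2 fold change of 0.64 (SE 0.26, edgeR adjusted p = 0.0705). Without knockout replicate 1 the log2 fold change was 0.82 and Mdm4 was called (adjusted p = 0.00753).

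**Figure D2:**
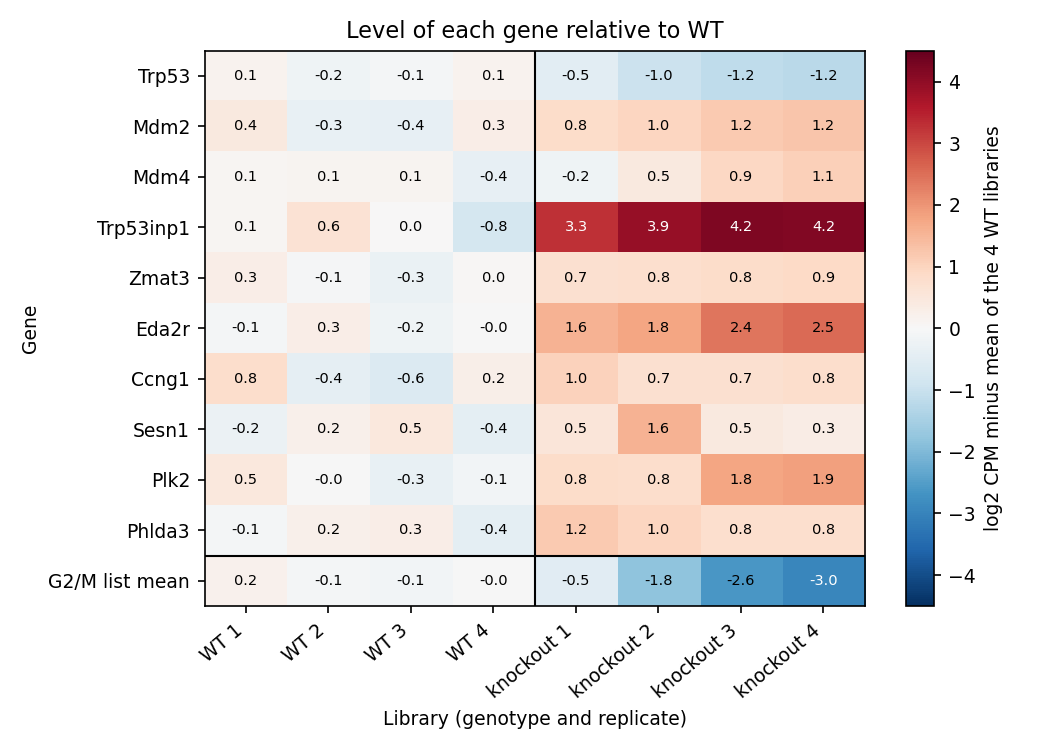
Heat map of log2 CPM minus the mean of the 4 WT libraries, for each gene (rows) and library (columns), with the mean of 15 G2/M genes in the bottom row. Knockout replicate 1 is at -0.48 for Trp53 and -0.52 for the G2/M genes, and the other 3 knockout libraries are at -0.98 to -1.22 for Trp53 and at -1.81 to -2.95 for the G2/M genes.

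Trp53inp1 (ENSMUSG00000028211, chromosome 4, 11156431 to 11174379, plus strand) encodes a stress-induced protein that works with p53 and in autophagy, and it had the largest change of the 10 genes. WT levels were 7.875, 11.5, 7.48 and 4.295 CPM, and knockout levels were 72.1, 112, 136 and 132 CPM. The lowest knockout library, replicate 1, was still above the highest WT library. The mean rose 14.5-fold, from 7.79 ± 2.95 to 113 ± 29.2 CPM (log2 fold change of 3.86 with SE 0.33, edgeR adjusted p = 0.000185). Per kilobase of exon Trp53inp1 had the lowest level of the 10 genes in WT, 1.20 ± 0.456 CPM per kilobase, and it reached 17.5 ± 4.52 in the knockout libraries.

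Eda2r (ENSMUSG00000034457, chromosome X, 97333840 to 97377216, minus strand) encodes a receptor of the TNF receptor superfamily for ectodysplasin A2. Its values were 15.3, 20.45, 14.55 and 16.1 CPM in WT and 48.2, 56.7, 87.8 and 96.1 CPM in the knockout libraries. The knockout libraries formed a lower pair (replicates 1 and 2) and a higher pair (3 and 4), both above WT. The mean rose 4.35-fold (log2 fold change of 2.12 with SE 0.24, edgeR adjusted p = 0.000552). The ligand gene Eda was at 0 in WT and at no more than 0.0917 CPM in any knockout library, which is about the level of 3 counts.

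Plk2 (ENSMUSG00000021701, chromosome 13, 110395046 to 110400844, plus strand), a polo-like kinase of centriole duplication and stress responses, showed the same split among knockout libraries. It was at 173.5, 122, 99.0 and 112 CPM in WT and at 218, 214, 428 and 450.5 CPM in the knockout libraries. Knockout replicates 3 and 4 were together 2.04 times as high as replicates 1 and 2, and all 4 lay above WT. Mean Plk2 rose 2.59-fold, from 127 ± 32.6 to 328 ± 129 CPM (log2 fold change of 1.37 with SE 0.30, edgeR adjusted p = 0.0062).

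Phlda3 (ENSMUSG00000041801, chromosome 1, 135766119 to 135769136, plus strand) encodes a pleckstrin homology domain protein that opposes Akt at the membrane. It was at 89.4, 111.0, 118 and 71.3 CPM in WT and at 217, 188, 161 and 162 CPM in the knockout libraries. Here knockout replicate 1 was the highest of the knockout libraries, not the nearest to WT. The rise was 1.87-fold (log2 fold change of 0.90 with SE 0.19, edgeR adjusted p = 0.00538).

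Zmat3 (ENSMUSG00000027663, chromosome 3, 32334792 to 32366014, minus strand) encodes a zinc finger RNA-binding protein. WT libraries were at 103, 80.1, 68.0 and 85.2 CPM and knockout libraries at 138.5, 142, 149 and 155 CPM. The knockout libraries were close together, the highest being 1.12 times the lowest, and all were above WT. Mean Zmat3 rose 1.74-fold, from 84.05 ± 14.5 to 146 ± 7.50 CPM (log2 fold change of 0.80 with SE 0.15, edgeR adjusted p = 0.00348).

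Ccng1 (ENSMUSG00000020326, chromosome 11, 40748552 to 40755311, minus strand) encodes cyclin G1, which brings the phosphatase PP2A to Mdm2, and it had the highest level per kilobase of the 10 genes in both genotypes (95.7 ± 44.3 CPM per kilobase in WT and 157 ± 17.5 in the knockout libraries). It was at 542, 232, 201 and 369.0 CPM in WT and at 641, 513, 513 and 532.5 CPM in the knockout libraries. WT replicate 1 lay among the knockout values, and the other 3 WT libraries lay below all of them. The log2 fold change was 0.71 (SE 0.29) and did not pass the test (edgeR adjusted p = 0.075). Without WT replicate 1 it was 1.04 and Ccng1 was called (adjusted p = 0.0143).

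Sesn1 (ENSMUSG00000038332, chromosome 10, 41809935 to 41908424, plus strand) encodes a sestrin, a stress-induced inhibitor of the growth kinase complex mTORC1. Its levels were low, 7.43, 10.2, 12.3 and 6.495 CPM in WT and 12.8, 26.0, 12.1 and 11.1 CPM in the knockout libraries. Knockout replicate 2 stood apart, replicate 1 lay just above the highest WT library, and replicates 3 and 4 lay within the WT values. The log2 fold change of 0.77 (SE 0.32) did not pass the test (edgeR adjusted p = 0.0782), and without knockout replicate 2 it was 0.40 (adjusted p = 0.256).

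Within WT, the 10 genes did not move together. Replicates 1 and 4 were both above replicates 2 and 3 for 4 genes (Trp53, Mdm2, Zmat3 and Ccng1), both below them for 3 (Mdm4, Sesn1 and Phlda3) and mixed for the other 3. Among knockout libraries, replicate 1 was the lowest for 5 genes (Mdm2, Mdm4, Trp53inp1, Zmat3 and Eda2r) and the highest for 3 (Trp53, Ccng1 and Phlda3). Knockout replicate 1 was also the knockout library with the highest G2/M level, 2820 CPM summed over the 15 genes against 587 to 1220 CPM in the other 3 and 3850 to 5550 CPM in WT. The part of the G2/M level in these differences was not tested. Without knockout replicate 1 the same 7 genes were called, together with Mdm4.

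Levels per kilobase place the 10 genes in order within each genotype, using all annotated exons of a gene, which understates genes with long alternative exons such as Mdm4 (14798 exon bases). In WT the order of mean levels was Ccng1, Phlda3 (62.5 ± 13.6 CPM per kilobase), Trp53 (54.4 ± 6.59), Mdm2 (33.5 ± 9.59), Plk2 (28.2 ± 7.26), Zmat3 (7.35 ± 1.27), Mdm4 (6.86 ± 1.05), Eda2r (2.82 ± 0.448), Sesn1 (2.29 ± 0.662) and Trp53inp1. The mean ± SD ranges of neighbours in that order overlapped except for Trp53 and Mdm2, Plk2 and Zmat3, and Mdm4 and Eda2r. In the knockout libraries Trp53 (28.4 ± 7.17) came below Plk2 (72.9 ± 28.8) and Mdm2 (67.8 ± 9.23), and Sesn1 was lowest (3.89 ± 1.77).

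Beyond these 10 genes, 49 other textbook p53 targets were read from the same fit. Of the 44 that passed the filter on low counts, 18 were called higher and 4 lower, against 20.9% and 20.6% of all rows, and 22 did not pass the test. The 4 lower calls became 2 without WT replicate 1 or 4 or knockout replicate 2, 3 or 4, and 1 with the 2 pairs of similar WT libraries summed. Fas passed the filter only through the knockout libraries, where it is high, and Kank3 (named for this alone) only through WT. Over the 42 genes that passed through both genotypes, 17 were higher and 4 lower, with a median log2 fold change of 0.50. The filter was not passed by 5 genes, of which Pmaip1 and Mgmt, named after their values were seen, had no count in any library.

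Among 8 targets of cell cycle arrest, 4 rose and 2 fell, beside 20.9% and 20.6% of all rows. Cdkn1a, the inhibitor of cyclin-dependent kinases and best known arrest target, was at 307, 204, 152 and 267 CPM in WT and 468.5, 359.9, 496 and 501 CPM in the knockout libraries, with no overlap. Its mean rose from 233 ± 68.3 to 456 ± 65.9 CPM (log2 fold change of 0.97 with SE 0.23, edgeR adjusted p = 0.00868). Btg2, an antiproliferative gene, rose from 6.11 ± 3.51 to 65.7 ± 23.5 CPM (3.43, SE 0.42, adjusted p = 0.000733). Sfn, which encodes 14-3-3 sigma, rose at a low level, from 0.911 ± 0.320 to 2.58 ± 0.355 CPM (adjusted p = 0.0093). The targets that fell were Gtse1 (-1.11) and Ckap2 (-1.27), named after their values were seen, and both encode proteins of dividing cells. For both, knockout replicate 1 lay within the WT values (144 and 131 CPM), and the call was lost without WT replicate 1 or 4 or knockout replicate 2, 3 or 4 (edgeR adjusted p up to 0.105 and 0.0814). Of the 15 G2/M genes 11 also fell and none rose, beside 20.6% of all rows called lower. The genotypes did not overlap for 9 of the 15, and for 40.7% of all rows. What part the G2/M level had in the changes of these targets was not tested.

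Among the 8 targets of cell death that passed the filter through both genotypes, 1 rose, Bbc3, and none fell. Over all rows, 20.9% were called higher and 20.6% lower. Bbc3, which encodes the BH3-only protein PUMA, was at 5.15, 13.2, 12.3 and 9.37 CPM in WT and 20.85, 25.4, 34.35 and 38.8 CPM in the knockout libraries (log2 fold change of 1.58 with SE 0.31, edgeR adjusted p = 0.00416). Fas, a death receptor, was at 0.521 ± 0.423 CPM in WT and 5.62 ± 1.11 CPM in the knockout libraries, given as a description because it passed the filter only where it is high. Bax, the pore-forming effector, overlapped between genotypes (150.2 ± 57.4 and 223 ± 61.2 CPM, adjusted p = 0.131, named after its value was seen), and it was called without WT replicate 3 (0.80, adjusted p = 0.0399).

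Of 6 DNA repair targets tested, Xpc and Ercc5, genes of nucleotide excision repair, rose and Polh, a translesion polymerase, fell. The shares over all rows were 20.9% higher and 20.6% lower, and 6 genes are few to set beside them. Xpc rose from 18.75 ± 4.21 to 43.97 ± 9.01 CPM (log2 fold change of 1.23 with SE 0.21, edgeR adjusted p = 0.00262). Ercc5 rose from 36.5 ± 5.82 to 71.5 ± 12.95 CPM (adjusted p = 0.00345). Polh fell from 72.2 ± 5.27 to 31.8 ± 6.59 CPM (log2 fold change of -1.19 with SE 0.17, adjusted p = 0.00111).

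Of 21 tested targets of metabolism and other functions, 10 rose and 1 fell, beside 20.9% and 20.6% of all rows. Ak1, an adenylate kinase, rose from 40.2 ± 4.71 to 107 ± 11.9 CPM (edgeR adjusted p = 0.000382). Ephx1, an epoxide hydrolase, rose from 154 ± 36.5 to 513.5 ± 38.5 CPM (adjusted p = 0.000437) and Dcxr, a carbonyl reductase, from 1.79 ± 0.783 to 10.1 ± 2.65 CPM (adjusted p = 0.00161). The gene that fell was Gls2, a glutaminase (-1.10, named after its value was seen).

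**Figure D3:**
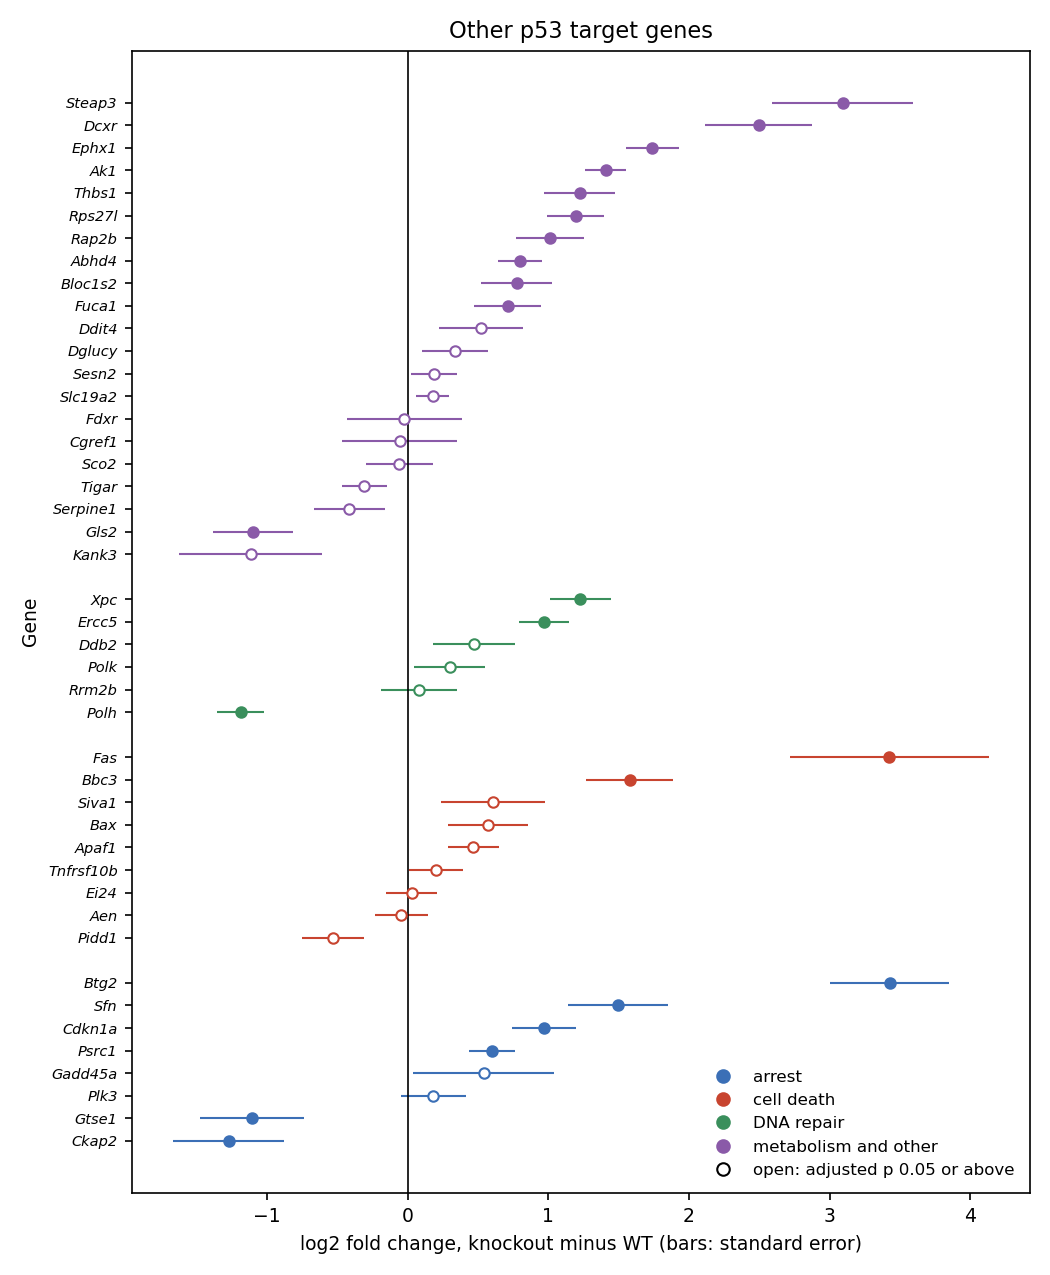
Log2 fold change (knockout minus WT, with bars of 1 standard error) of the 44 other p53 targets that passed the filter, grouped and coloured by role, with open circles at an adjusted p of 0.05 or above. Filled circles lie to the right of 0 for 18 genes and to the left for 4, Gls2, Polh, Gtse1 and Ckap2.

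Regulators of p53 went in both directions. Of 27 listed, 24 were tested, and 6 were called higher, 8 lower and 10 not, where 20.9% and 20.6% of all rows were called higher and lower. The 6 higher calls became 3 without knockout replicate 4 and 3 with the similar WT pairs summed. Of the 22 that passed the filter through both genotypes, 5 were higher and 7 lower, with a median log2 fold change of -0.45. Atm, a kinase that signals DNA damage to p53, fell from 73.2 ± 6.87 to 42.6 ± 1.64 CPM (log2 fold change of -0.78 with SE 0.13, edgeR adjusted p = 0.00202). Of the other 4 kinases on the list, named after their values were seen, Atr (-0.57), Chek1 (-1.60) and Hipk2 (-1.63) fell, and Chek2 did not pass (-1.08, adjusted p = 0.0547). Chek2 in knockout replicate 1 was within the WT values, and without that library it was called (-1.73, adjusted p = 0.00059). Sirt1, a deacetylase that acts on p53, passed the filter only through WT, where it is high, so its levels of 4.42 ± 0.979 CPM in WT and 0.401 ± 0.0834 CPM in the knockout libraries are a description. The deubiquitinase genes Usp7 (-0.74) and Usp10 (-1.19), which act on p53 and Mdm2, fell, as did the ligase gene Cop1 (-0.72), while another p53 ligase gene, Rchy1, rose (0.70). These 4 were named after their values were seen. Rpl23, a ribosomal protein that binds Mdm2, rose from 199.9 ± 27.0 to 542 ± 31.6 CPM (log2 fold change of 1.44 with SE 0.15, adjusted p = 0.000392). The other ribosomal Mdm2 binders, Rpl5 (0.20) and Rpl11 (0.47), named after their values were seen, did not pass, and since ribosomal protein genes have many pseudogenes, their counts are uncertain.

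Of the p53 relatives, Trp63 had 6, 7, 23 and 0 counts in WT and 8, 99, 144 and 184 counts in the knockout libraries. Neither genotype reached the filter level in all of its libraries. Trp63 was tested mainly through knockout replicates 2, 3 and 4, where it is high, so its fold change is a description. Knockout replicate 1 was within the WT range, and the log2 fold change of 3.38 (SE 1.01, edgeR adjusted p = 0.0237) lost its call in 8 of the 18 alternatives (adjusted p up to 0.0952), 5 of which leave out 1 library. Those libraries were WT replicates 1 and 2 and knockout replicates 2, 3 and 4. Under the alternative filter of at least 5 CPM in 4 libraries, Trp63 was not tested. Trp73 had no more than 2 counts in any library.

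Family members of the 10 genes were compared as well, and 3 rose and 2 fell of 10 tested, a share close to the 41.6% of all rows that were called. Trp53inp2, the relative of Trp53inp1, rose from 8.92 ± 2.94 to 43.2 ± 5.74 CPM (log2 fold change of 2.28 with SE 0.23, edgeR adjusted p = 0.000345). Ccng2, the relative of Ccng1, rose from 17.5 ± 10.4 to 63.7 ± 13.8 CPM (1.86, SE 0.41, adjusted p = 0.0065). Plk4, the centriole kinase, fell from 86.35 ± 1.32 to 30.5 ± 11.3 CPM (-1.50, SE 0.23, adjusted p = 0.00174). Sesn2 did not pass the test (0.19, SE 0.16, adjusted p = 0.374, named after its value was seen), and Sesn3, named likewise, had no count in any library.

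**Figure D4:**
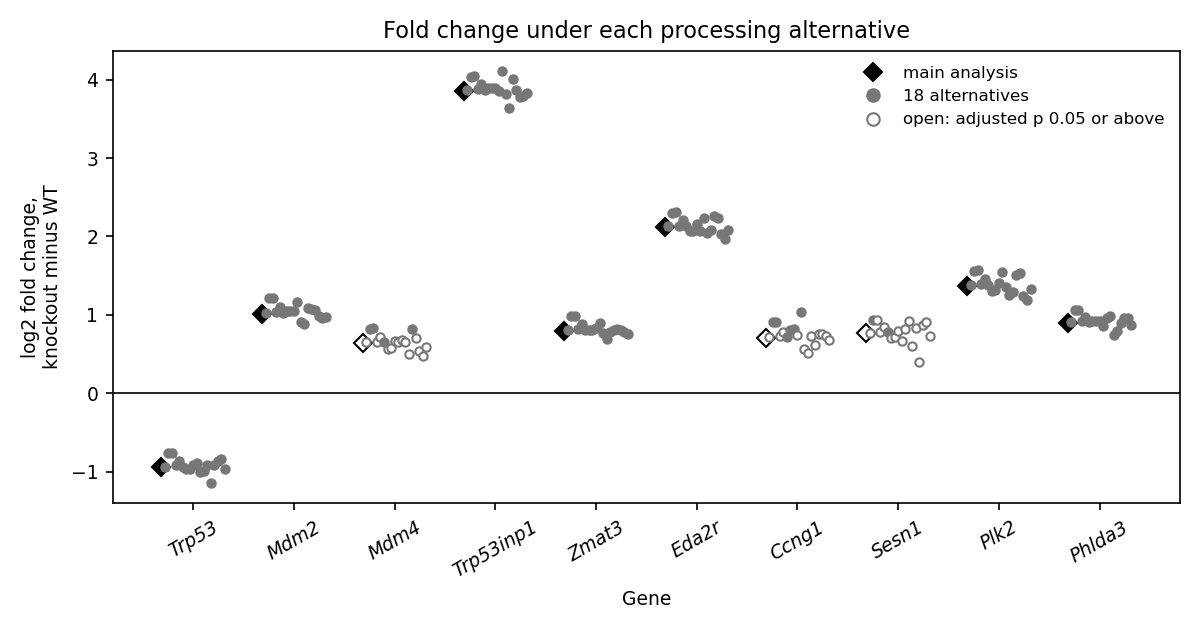
Log2 fold change (knockout minus WT) of each of the 10 genes in the main analysis (diamonds) and under 18 alternatives (circles), open where the adjusted p was 0.05 or above. The 7 called genes are filled throughout, and Mdm4, Ccng1 and Sesn1 are filled under 4, 6 and 2 alternatives.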

How the data were processed

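The authors deposited raw counts per gene or unannotated locus, whole numbers for 26642 rows and 8 libraries, in 2 tables with identical values. Per the submitters' processing notes, HISAT2, StringTie and GRCm38 were used, with no version stated. The counting program, its use of strand and its treatment of shared reads were not given in the sources used here. Libraries were grouped by their titles. Rows were filtered with filterByExpr (minimum count 10, total 15), given TMM factors, and the test was that of edgeR 4.0.16 in R 4.3.3 (glmQLFit and glmQLFTest, no covariates), with Benjamini-Hochberg adjustment over all rows. SE is the size of the log2 fold change divided by the square root of F. A run on simulated counts changed only a small part of the rows, as many up as down, and had no similar pairs of libraries. It therefore does not show how the test performs on these data. Positions and exon lengths are from GENCODE M21.

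The 10 genes and the lists were chosen with earlier results of these data known. From each list of targets, regulators and relatives, the 3 called genes with the smallest p are named, with Cdkn1a, Cdkn2a, Trp63 and Trp73, and for Trp53 and Mdm2 the 3 genes most correlated. Other names are marked in the text, except cell type markers and neighbouring genes, which are given with them. Alternatives were 3 other scalings, 2 other filters, DESeq2 1.42.0, limma-voom (limma 3.58.1), annotated genes only, the replicate number as a block and leaving out each library. Summing the 2 pairs of similar WT libraries was chosen after the data were seen.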

Additional observations from a re-analysis of the deposited data

Results flagged for a closer look

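In 6 of 114 groups of 4 libraries examined (57 genes in each genotype, which passed the filter and are named with values), 1 library lay far from the other 3, by a gap to the nearest that passed Dixon's critical value for 4 samples. Chance alone gives about 1 in 20 such groups. Mdm4 was at 78.2 CPM in WT replicate 4 against 108 to 110.4 CPM in the other WT libraries. Ccng1 was at 641 CPM in knockout replicate 1 against 513 to 532.5 CPM in the other knockout libraries. Sesn1 was at 26.0 CPM in knockout replicate 2 against 11.1 to 12.8 CPM. Trp53inp2, the relative of Trp53inp1, was at 13.3 CPM in WT replicate 2 against 7.06 to 7.65 CPM in the other WT libraries. Chek1, a checkpoint kinase gene, was at 47.1 CPM in WT replicate 1 against 42.7 to 43.2 CPM in the other WT libraries. Rpl11 was at 668 CPM in knockout replicate 1 against 458 to 477 CPM in the other knockout libraries.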

How the results depend on the processing

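The 7 calls among the 10 genes held under all 18 alternatives, with the same direction. Mdm4 was also called under upper-quartile scaling, library-size scaling, DESeq2 and without knockout replicate 1. Ccng1 was called with the first 3 of these, limma-voom, the replicate block and without WT replicate 1, and Sesn1 under upper-quartile scaling and DESeq2, so both of these called all 10. Same-numbered libraries did not deviate together (r from -0.0317 to -0.00276 over all rows tested), and the replicate block gave 4683 called rows against 5513 and 8 called members of the 10.

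Over all rows, 3134 were called (1652 higher, 1482 lower) with the WT pairs summed, and without 1 library the lower rows numbered 1768 to 3409, the lowest without knockout replicate 3. Of the calls, 64.6% were higher under upper-quartile and 63.5% under library-size scaling, against 50.4%. Of the other p53 targets, 1 was lower with the WT pairs summed, and 2 to 6 without 1 library (2 without WT replicate 1 or 4 or knockout replicate 2, 3 or 4). Of the regulators, 3 were higher with the WT pairs summed, and 3 to 6 without 1 library (3 without knockout replicate 4). Tead4 lost its call under upper-quartile scaling (-0.51), library-size scaling (-0.50) and the WT pairs summed (-0.75). Without 1 library its log2 fold change lay between -0.83 and -0.57, and the call was lost without WT replicate 1 or 4 or knockout replicate 2 or 3. The cause was not tested. The depth limits Cdkn2a, Pmaip1 and Trp73 to statements about a few counts.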

Other observations

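The genes whose log2 CPM followed Trp53 and Mdm2 most closely over the 8 libraries were read out as a description. The 8 libraries fall into 2 genotypes, 11766 annotated genes were compared, and no p is given. For Trp53 they were Ttll12, Umps, an enzyme of pyrimidine synthesis, and Ddx39, an RNA helicase. Umps was at 124 ± 20.75 CPM in WT and 50.1 ± 19.1 CPM in the knockout libraries. For Mdm2 they were Csf2, which encodes the cytokine GM-CSF, Tnip1, a gene of NF-kB regulation, and Akap2, an anchoring protein gene. Csf2 had 11, 0, 0 and 7 counts in WT and 34, 43, 106 and 142 counts in the knockout libraries, and Tnip1 was at 23.2 ± 3.79 and 38.4 ± 3.10 CPM. Csf2 passed the filter on low counts only through the knockout libraries, where it is high, and its WT levels rest on few counts.

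Beside Wrap53 at Trp53, another of the 10 genes has a protein-coding gene starting close by. Cep57l1 starts 64 bases from the Sesn1 start on the opposite strand, shares no annotated exon base with it, and was lower in the knockout libraries (20.8 to 25.5 CPM in WT against 9.13 to 16.8 CPM, log2 fold change -1.01, edgeR adjusted p = 0.00566).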
